A study of Arabidopsis thaliana with 18 samples.

Results

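The 133 chloroplast-encoded genes listed for Arabidopsis thaliana, all those whose locus identifier starts with ATCG, were followed across 18 RNA sequencing libraries that list 32833 genes in all. Of the 133, 51 had no read in any library. All of these are at most 121 bases long, and the authors discarded trimmed reads under 100 bases. Of the 82 with a count, 61 reached a summed count of 50 over the libraries and are described singly, and the other 21 held 305 of the 76902 chloroplast counts (0.397%). Wild-type Col-0 (WT) seedlings and seedlings of bro1-1, a T-DNA line with an insertion in an intron of AtBro1 (AT1G73390), were 2 weeks old and grown on half-strength Murashige and Skoog medium with sucrose. They were given a mock treatment, or 100 µM abscisic acid (ABA), the main drought hormone, for 2 h or 4 h. There were 3 libraries from independent biological replicates in each of the 6 groups. Each genotype has a single mock group with no listed duration. ABA and the time elapsed in treatment are therefore not separated in any comparison of ABA with mock. Both genotypes share the Col-0 background, and bro1-1 is a single insertion line. Libraries were made from the total RNA of seedlings, so fewer green cells and less chloroplast RNA per cell cannot be told apart.

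The chloroplast keeps a small genome of its own, inherited from a cyanobacterial ancestor. It encodes core subunits of both photosystems, the cytochrome b6f complex, ATP synthase, the NADH dehydrogenase-like (NDH) complex, the large subunit of Rubisco, ribosomal proteins and its own bacterial-type RNA polymerase (PEP). PEP is directed to promoters by nuclear-encoded sigma factors, and a phage-type polymerase, also encoded in the nucleus, transcribes mainly housekeeping genes such as rpoB. Most chloroplast mRNAs carry no stable poly(A) tail, and short tails mark RNA for decay. The labels call the experiment mRNA sequencing, and how mRNA was selected is not given in the sources used here, so the counts describe the chloroplast reads that entered these libraries rather than the size of the chloroplast RNA pool.

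Several sequences carry the account. The files give ATCG identifiers without symbols, so symbols were assigned by exact transcript length against the RefSeq chloroplast annotation (TAIR10.1), for 46 of the 61 by a unique length and for 8 by length and position between matched neighbours, and 7 stayed unnamed. ATCG00490 is the member on which the genotype comparison turns, and the study's own quantitative PCR primers for this identifier lie within rbcL, which spans Pltd:54958-56397 on the plus strand. They are shown because they tie the identifier to the gene independently of its length.
rbcL forward primer, Pltd:56112-56131, plus strand: gcatatgcctgctttgaccg
rbcL reverse primer, Pltd:56208-56227, minus strand: gagctactcggttggctacg
PEP promoters of the sigma-70 type resemble the bacterial boxes TTGACA and TATAAT. The 250 bases before each of 68 placed reading frames were searched on both strands for these letters 17 or 18 bases apart, and the best match on the strand of the gene is counted. At most 1 of the 12 box letters differed before 2 of the 68 frames (2.94%), psbA and ndhF, and before none on the other strand, and these matches are shown with the boxes in capitals.
psbA, Pltd:1530-1559, minus strand: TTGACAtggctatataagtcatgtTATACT
ndhF, Pltd:112836-112864, minus strand: TTGACAgtaacttagtaatatttTTTAAT
With up to 2 differing letters there were 6 frames on each strand (8.82%). With up to 3 there were 34 on the strand of the gene and 37 on the other. Before rbcL the best match differed at 4 letters, a level that 97.1% of the frames reached, and 94.1% on the other strand. A match is a likeness of letters and not a mapped promoter.

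Chloroplast reads were a trace of each library. They made up between 0.0148% and 0.0437% of the counts (median 0.0239%), 2579 to 7796 counts per library. Counts were scaled to CPM, the count of a gene relative to that of the library, with trimmed mean of M values (TMM) factors over all 18 libraries. The members' reads were concentrated: psbA alone, which encodes the D1 protein of photosystem II, held 27.1% of the chloroplast counts, and the 6 members with the most counts, psbA, rbcL, psaB, atpB, psbC and rpoB, held 63.5%. Per kilobase of full transcript length psbA was first with 19652 counts summed over the libraries, followed by rbcL with 4733, atpB with 3643, psbC with 3584 and psaB with 2764. No allowance was made for read length, which can understate short members. The 39 members of at most 100 bases, the length of tRNAs, had no count. The authors kept only trimmed reads of at least 100 bases, so these zeros cannot show that the RNAs were absent. The 8 ribosomal RNA members had 56 counts together, after a step in which the authors discarded ribosomal RNA reads.

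The targeted gene and the marker genes were looked at first. AtBro1 reads ranged from 12.3 to 21.0 CPM in the mock libraries of WT and from 10.5 to 12.5 CPM in those of bro1-1, from 286 to 546 CPM in WT with ABA and from 137 to 197 CPM in bro1-1 with ABA. Reads were therefore still assigned to AtBro1 in every bro1-1 library, and gene-level counts do not show on which side of the insertion they lie. The summed level of 4 green tissue markers (RBCS1A, LHCB1.1, RCA and CA1) ranged from 5984 to 25251 CPM. WT mock replicate 2 was at 5984 and bro1-1 mock replicate 3 at 7994, against 20960 to 23337 in the other 4 mock libraries. At 2 h the sum of these markers was 20236 to 20798 CPM in WT and 14769 to 25251 in bro1-1. At 4 h it was 9660 to 11852 CPM in WT and 9384 to 15690 in bro1-1. The summed level of 5 root markers moved with ABA in WT, from 53.1 to 60.0 CPM in mock to 15.0 to 24.5 at 2 h and 14.6 to 39.7 at 4 h, without overlap with mock. In bro1-1 it ranged from 23.3 to 70.7 CPM in mock, 16.3 to 56.3 at 2 h and 37.9 to 61.4 at 4 h. The part of these differences in the results was not tested.

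**Figure D1:**
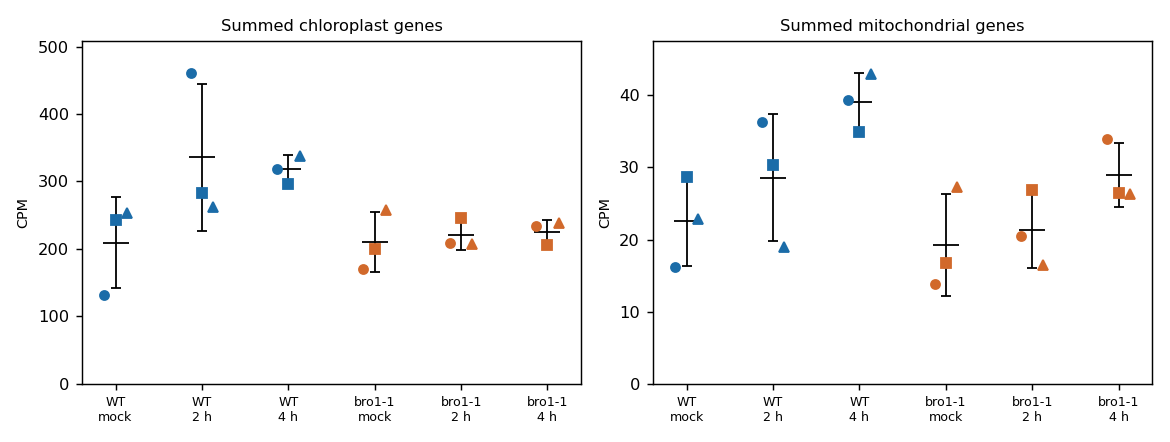
Summed CPM of the 133 chloroplast genes (left) and of the 152 mitochondrial genes (right) in each library, by genotype and ABA time. Circles, squares and triangles are replicates 1, 2 and 3, blue is WT, orange is bro1-1, and the bar with whiskers is the mean ± SD of 3 libraries; the WT libraries lie above those of bro1-1 at 2 h and 4 h on the left.

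On the TMM scale the whole set came out higher in WT seedlings after ABA and at about the mock level in bro1-1. Summed chloroplast CPM was 132, 243 and 253 in the WT mock libraries, 462, 283 and 262 after 2 h and 318, 297 and 338 after 4 h. In bro1-1 it was 171, 200 and 258 in mock, 209, 245 and 207 after 2 h and 233, 205 and 238 after 4 h. On this scale both WT ABA groups lay above WT mock without overlap. In these libraries the root markers were also below those of mock. Their green tissue markers were at 20236 to 20798 CPM at 2 h and at 9660 to 11852 CPM at 4 h. In the WT mock libraries these markers were at 22122.5, 5984 and 20960 CPM. The part of tissue composition in this rise was not tested. The bro1-1 groups overlapped each other, and at 2 h and at 4 h every bro1-1 library lay below every WT library. Mean levels in CPM without ABA were 209 ± 67.0 for WT and 210 ± 44.4 for bro1-1, 336 ± 109 against 220 ± 21.7 at 2 h, and 318 ± 20.8 against 226 ± 17.6 at 4 h (SD, n = 3). As log2 ratios of group means, bro1-1 differed from WT by 0.002 in mock, -0.61 at 2 h and -0.49 at 4 h, and ABA differed from mock by 0.68 and 0.60 in WT and by 0.07 and 0.11 in bro1-1.

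These sums are descriptions without a test, and 2 libraries weigh on them. WT mock replicate 1 had the lowest sum of all 18 and WT ABA 2 h replicate 1 the highest. Leaving out 1 library at a time kept the WT log2 ratio between 0.38 and 0.84 at 2 h and between 0.36 and 0.76 at 4 h, and the genotype ratio between -0.76 and -0.31 at 2 h and between -0.54 and -0.43 at 4 h. As a share of the total count without TMM factors, the WT ratios were 0.41 and 0.40, and those of bro1-1 turned to -0.13 and -0.03. On that scale WT at 2 h overlapped mock, with replicate 3 at 0.0235% against up to 0.0280% in mock, and in deposited TPM WT at both ABA times overlapped mock and the genotypes overlapped at 2 h. The genotypes were apart at 4 h on all of these scales. Summed mitochondrial CPM differed between bro1-1 and WT by -0.22 in mock, -0.42 at 2 h and -0.44 at 4 h (log2). The mean chloroplast to mitochondrial count ratio was 9.24 in WT against 11.25 in bro1-1 in mock. With ABA it was 11.95 against 10.60 at 2 h and 8.15 against 7.90 at 4 h. The ratio was thus higher in bro1-1 in mock and lower with ABA, with overlapping libraries at each time. Pooled over the times, it was 9.78 ± 2.21 over the 9 WT libraries and 9.91 ± 2.01 over the 9 of bro1-1 (SD). These pooled values mix the times and do not show equal ratios at each. The mitochondrial sums of the genotypes overlapped in mock and at 2 h and were apart at 4 h. With ABA the mitochondrial sum differed from mock by 0.34 and 0.79 in WT and by 0.14 and 0.58 in bro1-1, so at 4 h its ratio was above that of the chloroplast sum in both genotypes.

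Between the genotypes the direction was shared by most members, while only 1 passed the test. The call asked for an adjusted p under 0.05 (Benjamini-Hochberg, across all genes tested) together with an absolute log2 fold change above 1 in edgeR's quasi-likelihood test. Over all time points, bro1-1 against WT in all 18 libraries, 1 of 45 chloroplast genes that passed the filter on low counts was called, rbcL, against 0.0485% of the 20637 genes tested (10 genes). At an unadjusted p under 0.05 there were 11 members, all lower in bro1-1 (24.4%), beside 6.5% of all genes in either direction, and DESeq2 called rbcL and ndhA, beside 0.102% of all genes. Fold changes of all 61 members, taken from a fit without that filter, were below 0 for 54 and had a median of -0.36, beside 0.00 over the 21421 genes with a summed rounded count of at least 50. At a single time no member was called: 0 of 36 tested in mock, 0 of 36 at 2 h and 0 of 36 at 4 h, beside 0.0153%, 0.0308% and 0.0202% of all genes. At an unadjusted p under 0.05, 1, 8 and 3 members were lower in bro1-1 and none higher, which is 2.78%, 22.2% and 8.33% of those tested beside 1.19%, 7.15% and 10.1% of all genes in either direction, so the share at 4 h was below that of all genes. DESeq2 called 0, 1 and 1 members, rbcL in both cases, beside 0.0357%, 0.374% and 1.29% of all genes. The median over the 61 members was -0.13 in mock, -0.61 at 2 h and -0.41 at 4 h, beside -0.01, 0.00 and 0.00 over all genes of that depth.

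**Figure D2:**
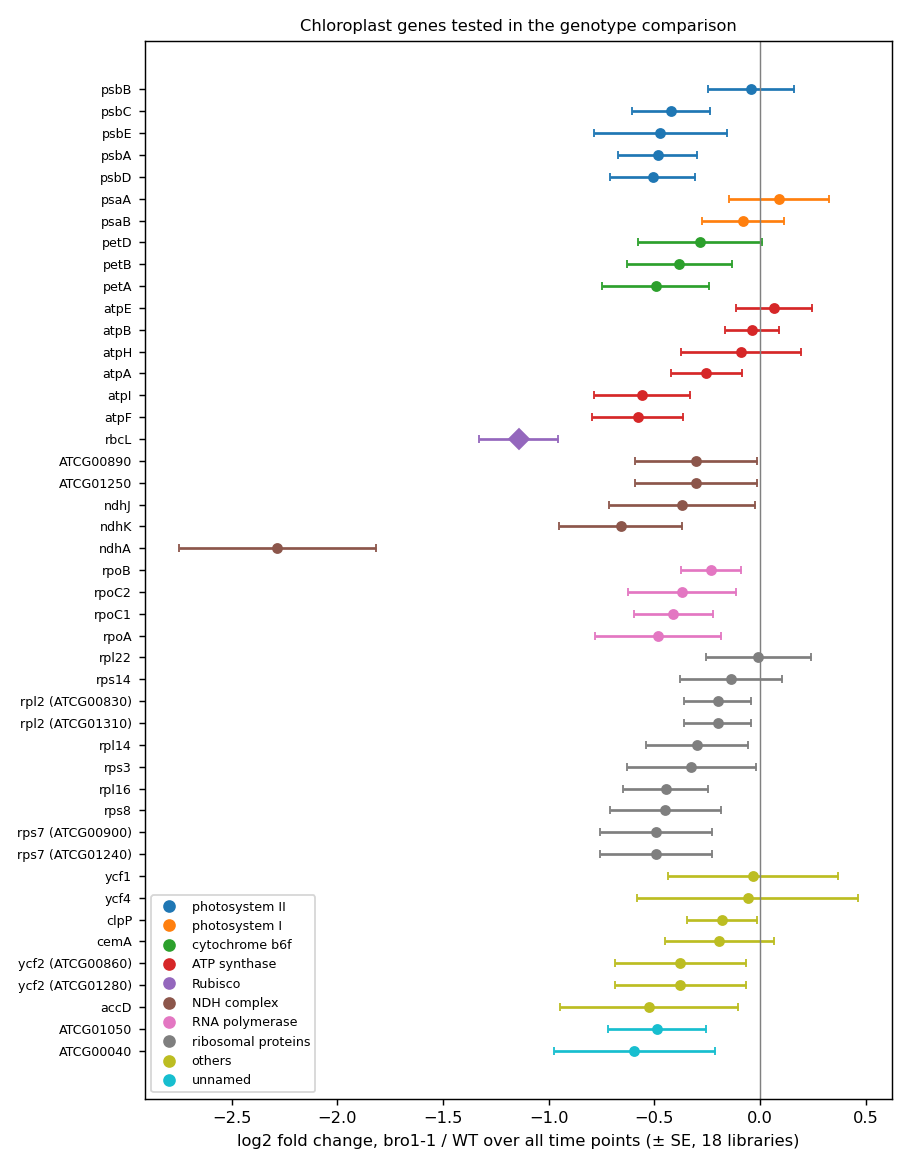
Log2 fold change of bro1-1 against WT over all time points for the 45 chloroplast genes that passed the filter, with the SE derived from the edgeR test over 18 libraries, coloured by functional group. The diamond is rbcL, the called member, at -1.14, and ndhA lies lowest at -2.28.

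rbcL encodes the large, catalytic subunit of Rubisco, the enzyme that fixes CO2 in the Calvin cycle. In WT its level was 13.7, 21.8 and 23.5 CPM in mock, 54.1, 33.1 and 30.7 after 2 h and 37.1, 32.8 and 34 after 4 h. In bro1-1 it was 12.4, 11 and 18.5 CPM in mock, 9.69, 16.5 and 12.8 after 2 h and 17, 13.6 and 11.6 after 4 h. The genotypes overlapped in mock and were apart at 2 h and 4 h, where the highest bro1-1 library, at 17 CPM, lay below the lowest WT library, at 30.7. rbcL fell in bro1-1 over all time points, with a log2 fold change of -1.14 ± 0.19 (SE, adjusted p = 0.0194). At single times it was -0.50 in mock (adjusted p = 1.00), -1.59 ± 0.27 at 2 h (adjusted p = 0.248) and -1.31 ± 0.17 at 4 h (adjusted p = 0.0918), while DESeq2 gave adjusted p of 4.36e-05 at 2 h and 4.15e-07 at 4 h. The call over all time points was lost, with adjusted p between 0.0520 and 0.0688, without WT ABA 4 h replicate 1, or bro1-1 ABA 2 h replicates 2 or 3, or bro1-1 ABA 4 h replicates 2 or 3, each left out alone, and the log2 fold change over all 18 such fits stayed between -1.26 and -1.02.

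The difference in rbcL was also present relative to the other chloroplast genes. rbcL made up 10.4, 8.97 and 9.3% of the chloroplast counts in the WT mock libraries, 11.7, 11.7 and 11.7% at 2 h and 11.7, 11.1 and 10.1% at 4 h. In bro1-1 its share was 7.25, 5.5 and 7.16% in mock, 4.65, 6.74 and 6.19% at 2 h and 7.28, 6.62 and 4.89% at 4 h. Every one of the 9 WT libraries, at 8.97% or more, lay above every one of the 9 bro1-1 libraries, at 7.28% or less, in mock as well. The means were 10.7% ± 1.09 and 6.25% ± 1.01 (SD, n = 9). Of the 61 members only rbcL and ndhA had shares that did not overlap between the genotypes over all 18 libraries, both lower in bro1-1. In CPM 0 of the 61 were apart over these libraries in either direction. Of 21420 genes, 0.0373% lay lower and 0.014% higher in CPM. Without rbcL the summed chloroplast CPM still differed by -0.52 at 2 h and -0.42 at 4 h on the log2 scale. Of 1341 windows of 100 bases along rbcL, 2.98% also occur in the mitochondrial genome and 0.820% in nuclear chromosomes of TAIR10.1. The 4 nuclear genes of the small subunit of Rubisco had a median log2 fold change of 0.07 over all time points with none called.

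**Figure D3:**
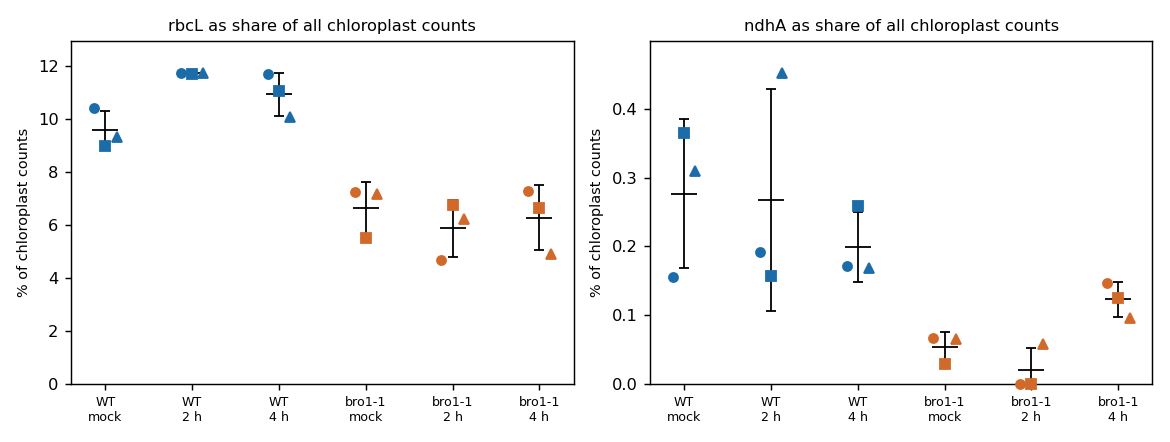
Share of rbcL (left) and ndhA (right) in all chloroplast counts of each library, in percent, by genotype and ABA time; symbols as for the summed level, with mean ± SD of 3 libraries. The rbcL share is 8.97% or more in all WT libraries and 7.28% or less in all bro1-1 libraries.

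Subunits of the NDH complex, which passes electrons from ferredoxin back to plastoquinone in cyclic electron flow around photosystem I, showed the widest range of genotype ratios at few counts. ndhA had 4, 17 and 14 counts in the WT mock libraries, 15, 7 and 18 at 2 h and 9, 14 and 9 at 4 h. In bro1-1 it had 2, 1 and 3 counts in mock, 0, 0 and 2 at 2 h and 6, 4 and 4 at 4 h. Only WT mock replicate 1, with 4 counts, came within the range of bro1-1. Over all time points its log2 fold change was -2.28 ± 0.47 (SE), at an adjusted p of 0.152 in edgeR and 0.00250 in DESeq2, and it did not pass the count filter at any single time. Its counts summed to 107 in WT and 22 in bro1-1.

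Of the other NDH members, ndhF, ndhG, ndhC and ndhH did not pass the count filter over all time points. ndhF, named above for its near match of box letters, had 1, 0 and 1 counts in WT mock, 13, 11 and 7 at 2 h and 2, 9 and 4 at 4 h. In bro1-1 it had 3, 1 and 2, 0, 0 and 3 and 0, 0 and 4 counts. The WT libraries lay above bro1-1 at 2 h only, and the 2 libraries of bro1-1 with 0 counts at each ABA time allow up to 3 counts each. ndhG, with 56 counts in WT and 13 in bro1-1, owed 22 of the former to WT ABA 2 h replicate 1. ndhC went the other way, with 18 counts in WT and 40 in bro1-1 and 6 counts in each bro1-1 mock library. ndhK and ndhJ were tested and not called, at log2 fold changes of -0.66 ± 0.29 and -0.37 ± 0.35 (SE). The 11 members assigned to the NDH group include both of the pair ATCG00890 and ATCG01250. They leave out identifiers with neither symbol nor description, such as ATCG01050, whose complex is not assigned here. Summed over these 11, the level was 0.90, 0.62 and 0.65 of that of WT in mock, at 2 h and at 4 h.

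Photosystem II was the group with the most counts, between 33.2% and 46.2% of the chloroplast counts in every library. psbA had 36.7, 52.5 and 65.9 CPM in WT mock, 151, 85.3 and 68.8 after 2 h and 88.7, 77.2 and 108 after 4 h. In bro1-1 it had 40.8, 57.1 and 66.5 CPM in mock, 55.2, 81.8 and 46.4 after 2 h and 45.6, 58.6 and 56.6 after 4 h. The genotypes overlapped in mock and at 2 h and were apart at 4 h, where the log2 fold change was -0.78 ± 0.16 (SE, adjusted p = 0.258). psbC and psbD encode CP43 and the D2 protein, and their reading frames overlap, so reads in the overlap could have been divided between them. psbC had 6.51, 15.6 and 17.4 CPM in WT mock, 32.8, 19.4 and 14.9 at 2 h and 22.8, 25.2 and 19.4 at 4 h, and 11.7, 12.1 and 16.2, 12.8, 16.4 and 13.8 and 15.2, 12.8 and 16.4 in bro1-1. psbD had 3.18, 6.98 and 8.74 CPM, 15.5, 6.61 and 7.07 and 10.6, 8.92 and 8.99 in WT, and 3.86, 4.59 and 7.04, 5.32, 5.42 and 6.1 and 6.35, 6.51 and 8.38 in bro1-1. Both were lower in every bro1-1 library than in any WT library at 4 h. psbB, for the antenna protein CP47, had 2.36, 6.2 and 6.55 CPM, 12.8, 7.37 and 8.33 and 12.4, 8.87 and 9.69 in WT, and 4.2, 7.77 and 8.84, 6.38, 8.32 and 8.13 and 9.61, 7.41 and 9.35 in bro1-1, with overlapping genotypes at each time. psbE and psbH, subunits of low molecular mass, had 133 and 63 counts.

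**Figure D4:**
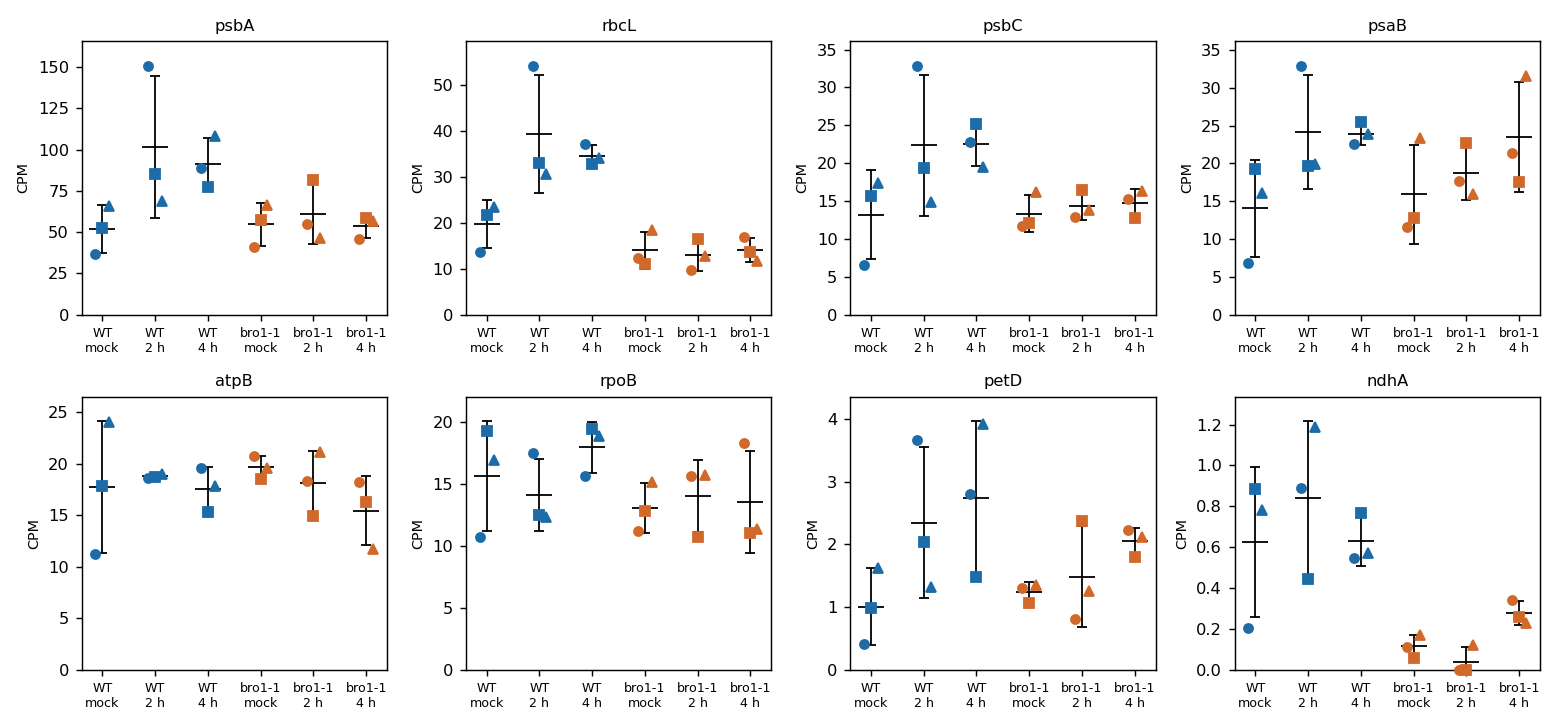
CPM of 8 members in each library by genotype and ABA time; circles, squares and triangles are replicates 1, 2 and 3, blue is WT, orange is bro1-1, and bars are the mean ± SD of 3 libraries. rbcL and psbA separate the genotypes at 4 h, whereas atpB, rpoB and psaB overlap.

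psaA and psaB, which encode the paired reaction centre proteins of photosystem I, had overlapping levels in the genotypes at each time. psaB had 6.87, 19.2 and 16.1 CPM in WT mock, 32.9, 19.6 and 19.9 at 2 h and 22.5, 25.5 and 23.9 at 4 h, and 11.6, 12.7 and 23.4, 17.6, 22.7 and 15.9 and 21.4, 17.5 and 31.5 in bro1-1. psaA had 3.28, 11.5 and 9.19 CPM, 19.6, 9.4 and 11.4 and 11.4, 12.9 and 13.2 in WT, and 6.42, 8.42 and 15.8, 11.6, 8.98 and 11.5 and 12, 11.6 and 21.6 in bro1-1. The log2 fold change over all time points was 0.09 ± 0.24 for psaA and -0.08 ± 0.20 for psaB (SE). psaC, which encodes the iron-sulfur subunit, had 42 counts in WT and 22 in bro1-1 and did not pass the count filter. Summed photosystem I levels in bro1-1 were 1.18, 0.78 and 1.05 of those of WT in mock, at 2 h and at 4 h, beside 1.05, 0.62 and 0.63 for photosystem II. Whether the groups differ from each other was not tested.

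ATP synthase subunits spanned both patterns. atpB, the catalytic beta subunit, had 11.3, 17.9 and 24 CPM in WT mock, 18.7, 18.7 and 19 at 2 h and 19.6, 15.3 and 17.8 at 4 h, and 20.8, 18.5 and 19.6, 18.3, 14.9 and 21.2 and 18.2, 16.3 and 11.7 in bro1-1. Its genotypes overlapped at each time. atpE, whose frame overlaps that of atpB, lay higher in bro1-1 in mock and lower at 2 h, and overlapped at 4 h. atpA, the alpha subunit, had 3.54, 5.47 and 5.49 CPM, 11.2, 5.65 and 6.67 and 8.03, 7.01 and 7.28 in WT, and 4.94, 5.18 and 7.55, 5.38, 4.76 and 5.38 and 6.52, 4.64 and 5.59 in bro1-1. atpA and atpF, a subunit of the stator stalk, lay lower in bro1-1 without overlap at 2 h and at 4 h. Over all time points atpF and atpI differed by -0.58 ± 0.22 and -0.56 ± 0.23 and atpB by -0.04 ± 0.13 on the log2 scale (SE), none of them called.

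The core subunits of PEP itself, rpoA, rpoB, rpoC1 and rpoC2, were lower in bro1-1 by -0.23 to -0.48 over all time points, with none called. rpoB had 10.7, 19.3 and 17 CPM in WT mock, 17.5, 12.5 and 12.4 at 2 h and 15.6, 19.4 and 18.9 at 4 h, and 11.2, 12.8 and 15.2, 15.6, 10.7 and 15.8 and 18.3, 11 and 11.4 in bro1-1, with overlapping genotypes at each time. Ribosomal protein genes summed to 1.02, 0.75 and 0.81 of the WT level in mock, at 2 h and at 4 h. The one with the most counts, rpl2, lies in the inverted repeat, and its copies ATCG00830 and ATCG01310 carry identical values because reads cannot be placed between them. Each copy of rpl2 was given 2.72, 4.14 and 4.9 CPM in WT mock, 4.83, 4.00 and 4.82 at 2 h and 4.38, 3.83 and 3.26 at 4 h, and 4.00, 4.92 and 3.83, 3.31, 2.74 and 4.16 and 4.37, 2.48 and 2.62 in bro1-1. Both copies together held 2356 counts, and the other pairs with identical values, ycf2, rps7, rpl23, ATCG00890 with ATCG01250 and ATCG00905 with ATCG01230, held 118 to 1492 counts as pairs. Of the 61 members, 55 had a lower mean CPM over the 9 bro1-1 libraries than over the 9 WT libraries, and the 6 that did not were rps2, atpE, psaA, ndhC and both copies of rpl23.

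**Figure D5:**
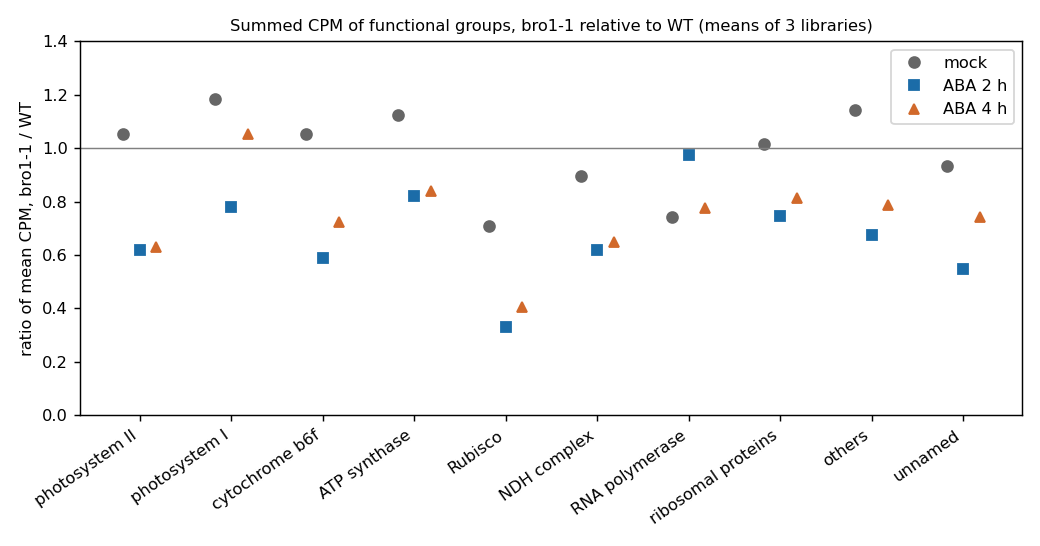
Ratio of mean summed CPM in bro1-1 to that in WT for each functional group in mock (circles), after 2 h (squares) and after 4 h of ABA (triangles), from 3 libraries per genotype; the line marks equal levels. Rubisco (rbcL) has the lowest ratios, 0.71, 0.33 and 0.41.

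Counting members whose libraries did not overlap gave a share at 4 h above that of all genes, unlike the unadjusted p. In mock, 4 of the 61 lay lower in bro1-1 (rpoC1, ndhA and the pair ATCG00905 and ATCG01230) and 3 higher (ndhC, atpE and ndhF), beside 3.34% and 2.46% of the 21420 genes with a summed count of at least 50 before rounding. At 2 h, 16 lay lower and none higher, beside 6.48% and 5.6% of all genes. At 4 h, 16 lay lower and 1, rps4, higher, beside 6.61% and 7.44%. As shares of the 61 members the lower counts were 6.56%, 26.2% and 26.2%. The 16 at 2 h hold both copies of ycf2. The 16 at 4 h hold both copies of rps7 and the pair ATCG00890 and ATCG01250. At both ABA times rbcL, atpA, atpF, psbD, ndhA and ATCG01050 were among those lower. The members share libraries and scaling, so they are not independent of each other.

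Few chloroplast genes passed the threshold with ABA, whereas a larger share of all genes did. Many of the members had few counts per library, and the part of depth in this contrast was not tested. In WT, 1 of 40 members tested was called at 2 h and 2 of 38 at 4 h, all higher, beside 17.7% and 20.9% of all genes. In bro1-1 none of 32 members at 2 h and none of 34 at 4 h was called, beside 21.9% and 23.8%. At an unadjusted p under 0.05 these were 3, 9, 1 and 0 members, all higher with ABA, which is 7.5%, 23.7%, 3.12% and 0% of those tested beside 39.8%, 43.5%, 49.3% and 49.6% of all genes in either direction. DESeq2 called 1, 4, 0 and 0 members, beside 20%, 23.1%, 22.9% and 24.8% of all genes. The member called at 2 h was ATCG01050, an unnamed identifier. Its level was 0.871, 1.98 and 1.79 CPM in WT mock, 4.91, 4.26 and 3.57 at 2 h and 3.23, 2.74 and 4.31 at 4 h, and 1.31, 2.06 and 2.03, 1.81, 3.5 and 1.5 and 1.89, 1.8 and 2.62 in bro1-1. It rose in WT at 2 h by a log2 fold change of 1.44 ± 0.36 (SE, adjusted p = 0.0261), with all WT libraries at 2 h above mock. The call was lost without WT mock replicate 3 or any 1 of the WT ABA 2 h libraries, at adjusted p from 0.0509 to 0.0955.

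The 2 called at 4 h are a single pair with identical values, ATCG00890 and ATCG01250, which the study describes as an NADH-ubiquinone or plastoquinone oxidoreductase subunit. Each copy was given 1.13, 2.03 and 2.16 CPM in WT mock, 4.09, 3.59 and 0.529 at 2 h and 3.77, 3.86 and 3.58 at 4 h, and 1.39, 1.47 and 2.48, 1.94, 3.47 and 1.61 and 2.83, 2.48 and 1.82 in bro1-1. The rise in WT at 4 h was 1.07 ± 0.34 (SE, adjusted p = 0.0464), and leaving out any 1 of the 6 libraries took the adjusted p to between 0.0603 and 0.125. WT ABA 2 h replicate 3 was the lowest library of all for this pair, at 0.529 CPM. rbcL in WT was higher with ABA by 0.98 ± 0.29 at 2 h (adjusted p = 0.0418) and 0.81 ± 0.22 at 4 h (adjusted p = 0.0275) and psbA by 0.82 ± 0.24 at 4 h (adjusted p = 0.0379), each under the fold threshold. In bro1-1 only rpoC1 passed on the adjusted p alone, at 0.81 ± 0.27 after 2 h (adjusted p = 0.0467).

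Read by libraries, 13 of the 61 members lay higher without overlap in WT after 2 h and 15 after 4 h, beside 24% and 25.9% of all genes. In bro1-1 these were 2 and 9, beside 27.4% and 29.4%. Lower without overlap were none in WT after 2 h and 1, ndhJ, after 4 h, beside 21% and 22% of all genes. In bro1-1 ndhC and atpE lay lower after 2 h and atpE and atpB after 4 h, beside 25.2% and 23.3%. The median log2 fold change of the 61 was 0.56 and 0.45 in WT and 0.07 and 0.06 in bro1-1, with 52, 42, 35 and 36 members above 0. The tests of the difference between the genotypes called none of 40 members at either time, and 0% of the 20330 and 0% of the 20480 genes tested, at 2 h and 4 h. At an unadjusted p under 0.05 the interaction was below 0 for rbcL, atpE and ycf1 at 2 h and for rbcL and psbA at 4 h. These are 7.5% and 5% of the members tested beside 5.12% and 5.95% of all genes, shares near the background, and DESeq2 called none of the members and 0.0787% and 0.0488% of all genes. For rbcL it was -1.09 ± 0.42 and -0.80 ± 0.34 (SE) at adjusted p of 0.909 and 0.830, so a difference between the genotypes in the response to ABA was not shown for any chloroplast gene.

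Across both genotypes together, none of 45 members was called at 2 h and 1 at 4 h, beside 22.6% and 24.9% of all genes, and none between 4 h and 2 h, beside 3.95%. At an unadjusted p under 0.05 there were 2, 5 and 1 members, which is 4.44%, 11.1% and 2.22% beside 58.6%, 62.4% and 32% of all genes, and DESeq2 called 0, 1 and 0, beside 22.9%, 25% and 4.67%. petD, which encodes subunit IV of the cytochrome b6f complex, was the one called. It had 0.41, 0.99 and 1.62 CPM in WT mock, 3.67, 2.03 and 1.32 at 2 h and 2.8, 1.48 and 3.93 at 4 h, and 1.31, 1.06 and 1.35, 0.813, 2.38 and 1.26 and 2.23, 1.8 and 2.11 in bro1-1. Its rise at 4 h over both genotypes was 1.00 ± 0.36 (SE, adjusted p = 0.0242), at the edge of the fold threshold. The call was lost without WT mock replicates 1 or 2, WT ABA 4 h replicates 1 or 3, or bro1-1 ABA 4 h replicate 1, with the log2 fold change over all such fits between 0.80 and 1.12. The WT groups overlapped, at 1.62 CPM in mock and 1.48 at 4 h, whereas in bro1-1 every library at 4 h lay above mock. psaB and psbB, at 0.60 ± 0.24 and 0.61 ± 0.25, passed on the adjusted p alone.

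The nuclear genes that serve chloroplast transcription were read from the same fits. Of 28 genes listed (6 sigma factors, 2 phage-type polymerases, 12 PEP-associated proteins, 4 RNA decay and binding proteins and 4 Rubisco small subunits), 1 was called between the genotypes over all time points. This was SIG4, lower in bro1-1 by -1.43 ± 0.17 (SE, adjusted p = 0.000330). SIG4 is a sigma factor that in Arabidopsis is known to direct transcription of ndhF. Levels of ndhF, which did not pass the count filter, lay higher in bro1-1 in mock and lower at 2 h, and overlapped at 4 h. A link between SIG4 and ndhF was not tested. SIG4 ranged from 47.0 to 85.5 CPM over the WT libraries and from 13.7 to 37.2 over those of bro1-1, with no overlap in mock either, where the summed chloroplast level overlapped. At single times it was called at 2 h, at -1.56 ± 0.15 (adjusted p = 0.0205). SIG5, the sigma factor known for stress and blue light responses, rose in WT by 4.94 ± 0.53 at 2 h and 3.85 ± 0.52 at 4 h and in bro1-1 by 5.07 ± 0.45 and 4.12 ± 0.35 (SE, adjusted p = 0.000956, 0.00166, 0.000178 and 0.000103). PAP8, a PEP-associated protein, was the only other gene of the lists called in bro1-1, lower with ABA by -1.09 ± 0.15 at 2 h and -1.12 ± 0.16 at 4 h (adjusted p = 0.00124 and 0.00113). The median of the 28 between the genotypes was -0.06 over all time points, beside -0.01 over all genes tested.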

How the data were processed

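The members, the gene lists and the tests were chosen with earlier results of these data known. Per the labels and the study's methods, total RNA was extracted from the seedlings with an RNeasy kit and sequenced. The authors trimmed reads with BBDUK2, discarded ribosomal RNA reads with Bowtie 2 (2.3.5.1) and quantified genes with RSEM (1.2.30), and they deposited 1 table per library with expected counts, which need not be whole, and TPM values. The genome build, the annotation and the use of strand are not given in the sources used here. Overlapping genes on both strands can therefore share reads. Of the member values with a count, 13.3% were not whole. No column of per-sample values was left unused for want of a sample.

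Expected counts were rounded, filtered with filterByExpr, scaled by TMM and tested with the quasi-likelihood test of edgeR (4.0.16, R 4.3.3), over the 6 libraries of a pair of groups, the 12 of an interaction or all 18. Adjusted p are Benjamini-Hochberg values over all genes tested. TPM values, as deposited, served only as an alternative for the summed level. Alternatives were DESeq2, other scaling factors, no filter, no fold threshold, a replicate block and leaving out each library. They also included, chosen after seeing the data, inverted repeat copies summed and 2 libraries left out together. Scripts were tested on simulated data.

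Members with a summed count of at least 50 are named, with values by library for the 12 with the most counts, those called, rbcL and ndhA. Depth was 15568034 to 17853178 counts per library. Counting error alone gives a count of 0 an upper limit of 3 counts. Symbols were matched by exact transcript length, sequences are from RefSeq (TAIR10.1) and the study's primer list, and the 100-base windows were matched exactly.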

Additional observations from a re-analysis of the deposited data

How the results depend on the processing

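The log2 fold changes of rbcL, ndhA, petD, ATCG01050 and the pair ATCG00890 and ATCG01250 in the comparisons described kept their sign in every alternative run. Counts of called members were small, so a single gene moved them. In WT at 2 h the count of 1 became 2 with no filter, 2 with the adjusted p alone, 0 with WT mock replicate 1 and WT ABA 2 h replicate 1 both left out, and 0 to 3 leaving out 1 library. In WT at 4 h the count of 2 became 4 with DESeq2, 0 with no filter, 1 with the copies of the inverted repeat summed, 4 with the adjusted p alone and 0 to 1 leaving out 1 library. In bro1-1 at 2 h the count of 0 became 1 with the adjusted p alone and 0 to 1 leaving out 1 library. Between the genotypes DESeq2 called 1 at 2 h and 1 at 4 h, where edgeR without a filter also called 1, and 2 over all time points, where leaving out 1 library gave 0 to 1. Over both genotypes the count became 1 at 2 h with the adjusted p alone and 0 to 1 leaving out 1 library, and at 4 h 2 with no filter, 3 with the adjusted p alone and 0 to 2 leaving out 1 library. Scaling by RLE factors or by nuclear genes moved no count. The log2 ratio of summed chloroplast levels in bro1-1 with ABA was -0.28 at 2 h and -0.22 at 4 h in deposited TPM. Levels under about 1 CPM rest on a few reads per library.

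Replicate numbers are not stated to mark a shared batch, and deviations of same-numbered libraries from their group means correlated between -0.26 and 0.42, with no comparison above 0.1 in every pair, so the libraries were treated as unpaired. With the replicate block the counts of called members became 0 in WT at 2 h, 0 in WT at 4 h, 0 between the genotypes over all time points and 0 at 4 h over both genotypes. The log2 fold change of rbcL over all time points was then -1.14 at an adjusted p of 0.0599.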
